A study of Mus musculus with 6 samples.

Results

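The genes described here encode the fatty acid binding, uptake and carrier proteins of the liver, and they were followed in RNA sequencing of livers in which *Surf4* had been inactivated in hepatocytes. SURF4 is a cargo receptor that carries secreted proteins out of the endoplasmic reticulum. The set holds 10 named genes of the 35540 gene symbols in the deposited table: *Fabp1*, *Fabp2*, *Fabp4*, *Fabp5*, *Fabp7*, *Cd36*, *Slc27a2*, *Slc27a5*, *Dbi* and *Scp2*. For each gene the deposited TPM, a level corrected for transcript length and scaled to the same total in every mouse, were summed over its transcripts. The genes were chosen by name with their measured TPM difference between genotypes already known, so that difference is given as levels and errors with no test, while the difference between sexes, which played no part in naming them, was tested.

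There were 6 livers, 3 from mice of the genotype *Surf4* fl/fl *Alb-Cre*+ and 3 from littermates without Cre, *Surf4* fl/fl *Alb-Cre*-, which served as controls. All 6 mice carried the floxed *Surf4* allele on both chromosomes on a C57BL/6J background, and the Cre recombinase was driven by the albumin promoter, which is active in hepatocytes and not in the Kupffer, endothelial or stellate cells of the same tissue. Each genotype had a female mouse, numbered 2, and a pair of males, numbered 1 and 3, so that sex cannot be told apart from anything else that the mice numbered 2 shared. The ages of these mice are not given in the labels, and no agent or diet other than chow is named for them. The study's methods describe an overnight fast before tissues were taken.

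Long-chain fatty acids reach the hepatocyte from plasma, cross its membrane with the help of CD36 and the fatty acid transport proteins of the SLC27 family, and are joined to coenzyme A. Inside the cell they are held in solution by small fatty acid binding proteins (FABPs), while their coenzyme A esters are held by acyl-CoA-binding protein, the product of *Dbi*. FABPs are named for the tissue where each is most abundant: FABP1 for liver, FABP2 for intestine, FABP4 for adipocytes, FABP5 for epidermis and FABP7 for brain. *Scp2* encodes a longer protein, sterol carrier protein x, in which a peroxisomal thiolase is joined to a sterol carrier domain, and a shorter one that holds the sterol carrier domain alone.

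*Surf4* itself was at 92.5, 94.5 and 92.5 TPM in the controls and at 59.0, 71.8 and 54.3 TPM in *Alb-Cre*+ mice, so that the groups did not overlap. The Y-linked genes summed to between 55.1 and 64.6 TPM in the 4 male mice and to 0.0908 and 0.101 TPM in the 2 female mice, as their labels give. The 6 hepatocyte markers summed to between 62183 and 83003 TPM, and *Alb* alone to between 38059 and 55647 TPM. Because TPM keep no read totals, the depth of each library is unknown, and values of a few TPM carry a counting error that cannot be given.

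The 5 FABP genes are built alike, each with 4 exons in its main transcript and with 127 to 135 codons before the stop. Aligned end to end, the coding sequences of *Fabp4*, *Fabp5* and *Fabp7* were 55.3% to 59.9% identical, whereas all pairs that include *Fabp1* or *Fabp2* were 44.1% to 48.5% identical. The first 60 coding bases, read 5′ to 3′ from the GENCODE transcripts of GRCm38, are shown, with the start codon in capitals, so that the members of the family can be set side by side.
Fabp1: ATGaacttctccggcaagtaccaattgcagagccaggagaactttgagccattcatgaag
Fabp2: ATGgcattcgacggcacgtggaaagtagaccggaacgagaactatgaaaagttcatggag
Fabp4: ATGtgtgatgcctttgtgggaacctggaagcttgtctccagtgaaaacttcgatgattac
Fabp5: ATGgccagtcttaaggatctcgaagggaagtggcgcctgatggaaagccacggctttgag
Fabp7: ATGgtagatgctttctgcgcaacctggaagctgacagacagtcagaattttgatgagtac

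Promoter windows, from 250 bases before to 50 bases after the annotated start in RefSeq (GRCm38.p6), were at hand for 7 of the 10 genes in 8 windows. They are given for *Fabp2*, which was lower in all *Alb-Cre*+ mice, for *Fabp1*, the most abundant gene of the set, and for *Cd36* and *Fabp7*, which were higher in both female mice. Capitals mark AGGTCA, the half-site that many nuclear receptors share (written TGACCT where it lies on the other strand), and TATAAA. The *Fabp2* window is chr3:122894822-122895121 on the plus strand, the *Fabp1* window chr6:71199629-71199928 on the plus strand, the *Cd36* window chr5:17835847-17836146 on the minus strand and the *Fabp7* window chr10:57784673-57784972 on the plus strand.
Fabp2: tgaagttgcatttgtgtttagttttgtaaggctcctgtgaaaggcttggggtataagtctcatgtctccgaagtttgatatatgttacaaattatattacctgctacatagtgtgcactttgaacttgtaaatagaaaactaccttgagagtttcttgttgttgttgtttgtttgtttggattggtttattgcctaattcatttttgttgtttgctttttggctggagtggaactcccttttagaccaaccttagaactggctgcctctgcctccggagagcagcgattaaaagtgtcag
Fabp1: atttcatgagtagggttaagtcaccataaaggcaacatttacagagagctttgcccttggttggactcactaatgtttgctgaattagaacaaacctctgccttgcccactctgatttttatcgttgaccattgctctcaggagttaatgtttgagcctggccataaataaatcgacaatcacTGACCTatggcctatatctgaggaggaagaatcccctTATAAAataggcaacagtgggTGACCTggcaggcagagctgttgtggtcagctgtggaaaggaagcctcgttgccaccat
Cd36: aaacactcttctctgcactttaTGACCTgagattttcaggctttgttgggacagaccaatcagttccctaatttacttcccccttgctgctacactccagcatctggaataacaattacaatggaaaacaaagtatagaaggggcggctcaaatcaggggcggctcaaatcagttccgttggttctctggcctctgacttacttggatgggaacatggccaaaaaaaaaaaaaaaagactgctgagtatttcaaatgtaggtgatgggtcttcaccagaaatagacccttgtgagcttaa
Fabp7: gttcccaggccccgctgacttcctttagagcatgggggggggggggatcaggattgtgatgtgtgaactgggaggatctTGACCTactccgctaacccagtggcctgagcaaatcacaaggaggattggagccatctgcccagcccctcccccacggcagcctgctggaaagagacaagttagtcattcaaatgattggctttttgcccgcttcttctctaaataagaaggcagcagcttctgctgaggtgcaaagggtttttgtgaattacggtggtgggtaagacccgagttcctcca
Searched on both strands, AGGTCA lay 9 and 67 bases before the start of *Fabp1*, 228 before that of *Cd36*, 171 before that of *Fabp7*, 220 before that of *Slc27a2* and 109 before that of *Scp2*. It was in 16.3% of 32851 promoter windows of the same length. TATAAA, found in 13.6% of them, lay 30 bases before the start of *Fabp1* and in no other window of the set. The windows of *Fabp2* and *Dbi* held neither. A direct repeat of AGGTCA spaced by 1 base (0.0396% of windows) and CAAAGTCCA, a core of sites for the hepatocyte factor HNF4A (0.475%), were in none of the 8. A match is a run of letters, not a measured binding site. Some transcripts with a large share of the TPM start outside these windows. For *Cd36* this holds for every transcript, with ENSMUST00000169095 starting at 17888747 and ENSMUST00000197890 at 17835717. ENSMUST00000141482 and ENSMUST00000061491 of *Slc27a2* start at 126556128 and 126552407, and ENSMUST00000106701 of *Scp2* at 108071419. The only *Fabp1* transcript, ENSMUST00000067492, starts inside its window at 71199827, before the RefSeq start. The TATAAA and the nearer AGGTCA lie downstream of that position.

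**Figure D1:**
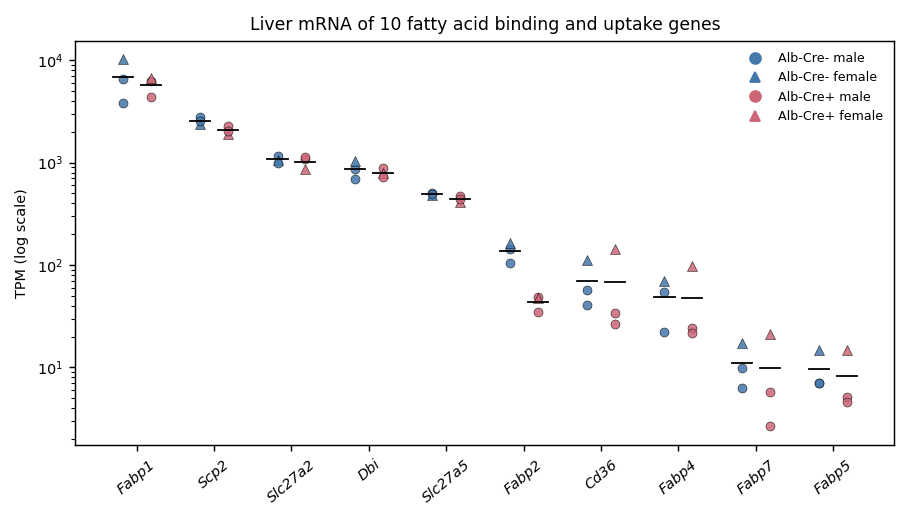
TPM of the 10 genes on a log axis, ordered by their mean over all mice, with 1 point per mouse (circles male, triangles female) and a black line at the mean of each genotype. Fabp2 is the gene whose 3 Alb-Cre+ points lie farthest below its 3 control points, while the female points of Cd36, Fabp4, Fabp5 and Fabp7 lie above all male points.

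Levels differed widely within the set, as the plot of TPM per mouse shows. The mean over the 6 mice was 6323 TPM for *Fabp1*, 2324 for *Scp2*, 1049 for *Slc27a2*, 831 for *Dbi*, 469 for *Slc27a5*, 90.7 for *Fabp2*, 69.2 for *Cd36*, 48.2 for *Fabp4*, 10.5 for *Fabp7* and 8.96 for *Fabp5*. The ranges of *Fabp1* and *Scp2* did not overlap, nor did those of *Scp2* and *Slc27a2* or of *Dbi* and *Slc27a5*. The ranges of *Slc27a2* and *Dbi* overlapped, as did those of *Fabp2* and *Cd36*, *Cd36* and *Fabp4*, and *Fabp7* and *Fabp5*. Together the 10 genes took between 0.876% and 1.56% of the TPM of a mouse, and *Fabp1* alone made up 95.7% to 98.7% of the summed TPM of the 5 FABP genes.

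Between genotypes, 0 of 14189 genes tested (0.0%) passed limma's moderated test on log2(TPM + 0.1) at a Benjamini-Hochberg adjusted p of 0.01, the smallest adjusted p being 0.456. The study's own DESeq2 comparison of these livers reported limited changes, with genes higher and lower at a false discovery rate under 0.01. The 0 therefore belongs to the fits of TPM made here, and does not mean that no gene differed. Sex is part of the spread in the fit of genotype alone, but adding sex as a covariate also left 0 genes passing. Why the fits of TPM gave 0 was not tested. At an unadjusted p under 0.05 the fit of genotype alone gave 250 genes, 114 higher and 136 lower in *Alb-Cre*+ mice. In 695 of the 14189 genes (4.9%) the 3 values of one genotype all lay above or all below the 3 of the other, and 385 (2.71%) were lower. In the set, 3 of 10 genes were so placed, *Fabp2*, *Slc27a5* and *Scp2*, all lower in *Alb-Cre*+ mice. Because the genes were chosen with this contrast known, nothing is read from that count. With the mice scaled by the median of ratios *Fabp2* was the 1 gene left in it, when 5.84% of all genes did not overlap and 2.81% were lower. Among the male mice alone, 2 against 2, the count was 6 genes, all lower, with *Fabp5*, *Fabp7* and *Cd36* joining these 3, when 32.7% of all genes did not overlap and 23.7% were lower.

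The mean log2 difference between genotypes was below 0 for all 10 genes, and their median was -0.27 beside -0.0017 over all genes tested. That sign rested on single mice for most of them. Without control replicate 2 it was above 0 for 5 of the 10 genes (*Fabp1*, *Fabp4*, *Fabp5*, *Cd36* and *Dbi*), and without *Alb-Cre*+ replicate 3 for 4 (*Fabp1*, *Fabp4*, *Fabp7* and *Cd36*). Leaving out *Alb-Cre*+ replicate 1 turned *Fabp4* alone, and leaving out *Alb-Cre*+ replicate 2 turned *Slc27a2* alone. The SE of genotype differences given below come from the fit of genotype alone, so the spread between sexes is part of them. With the replicate number as a block, on 2 residual degrees of freedom, the SE were smaller. They were 0.19 for *Fabp1*, 0.10 for *Fabp2*, 0.34 for *Fabp4*, 0.16 for *Fabp5* and 0.30 for *Fabp7*. For *Cd36*, *Slc27a2*, *Slc27a5*, *Dbi* and *Scp2* they were 0.23, 0.12, 0.09, 0.13 and 0.10.

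**Figure D2:**
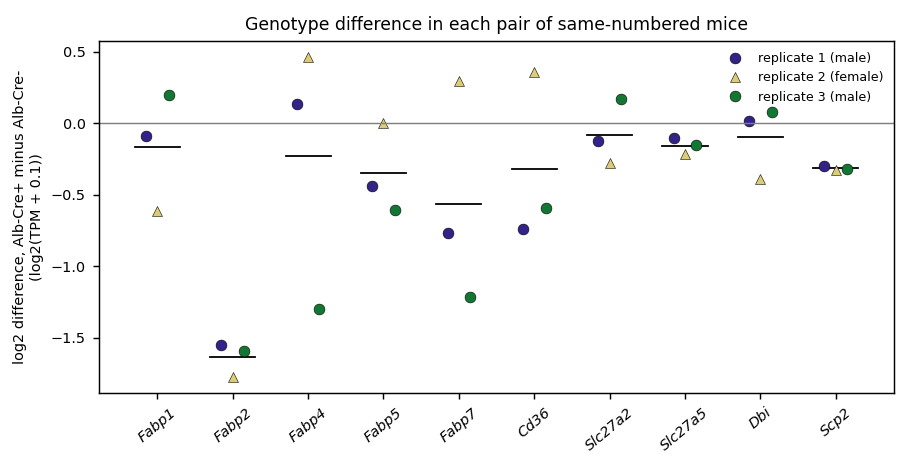
Difference of log2(TPM + 0.1), Alb-Cre+ minus Alb-Cre-, in each pair of mice with the same replicate number, with a black line at the mean of the 3 pairs and a grey line at no difference. The 3 pairs of Fabp2 lie between -1.77 and -1.55 and those of Scp2 between -0.33 and -0.30, whereas the pairs of Fabp4, Fabp7 and Cd36 lie on both sides of 0.

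*Fabp2*, which encodes the FABP best known from intestinal absorptive cells, had the largest genotype difference of the set. Its level was 144, 164 and 106 TPM in the controls and 49.0, 47.8 and 34.9 TPM in *Alb-Cre*+ mice (chr3:122895072-122899506, plus strand, GRCm38). Every *Alb-Cre*+ mouse was below every control. The mean fell from 138 ± 29.5 TPM (SD, n = 3) to 43.9 ± 7.81 TPM (SD, n = 3), a log2 difference of -1.64 (SE 0.21) and 31.9% of the control level. The pairs of mice with the same number gave -1.55, -1.77 and -1.59, so that both sexes showed a difference of similar size. Under the settings that left out 1 mouse it lay between -1.82 and -1.48.

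The gene has 1 transcript in the table, of 4 exons, and none of its 31-base stretches was shared with another gene of the annotation. The 5 enterocyte markers (*Vil1*, *Lct*, *Alpi*, *Sis* and *Rbp2*) summed to between 0.0273 and 0.119 TPM in 5 mice and to 3.38 TPM in *Alb-Cre*+ replicate 2. In that mouse *Rbp2* was at 1.60 TPM, *Alpi* at 1.27, *Vil1* at 0.340, *Sis* at 0.149 and *Lct* at 0.0138 TPM. Its *Fabp2*, 47.8 TPM, lay between those of the other 2 *Alb-Cre*+ mice. The part of enterocyte RNA in the level of *Fabp2* was not tested.

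Among 5149 genes whose mean reached 10 TPM, those whose log2 levels over the 6 mice ran closest to *Fabp2* were *Arsg* (Pearson r = 0.995), *Apoa1* (0.994), *Elovl2* (0.994), *Psmd9* (0.985) and *Fads2* (0.984). *Apoa1* encodes the main protein of high density lipoprotein, and *Elovl2* and *Fads2* encode an elongase and a desaturase of polyunsaturated fatty acids. *Elovl2* was at 264, 312 and 230 TPM in the controls and at 86.2, 83.0 and 54.2 TPM in *Alb-Cre*+ mice. *Apoa1* was at 17603, 20844 and 15764 TPM against 10222, 9779 and 8802 TPM. The points of these correlations share genotype and library, and the genes were picked as the most similar of many, so the coefficients describe likeness and carry no p-value.

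*Fabp1*, the main FABP of hepatocytes, spread widely within each genotype. It was at 6587, 10245 and 3831 TPM in the controls and at 6194, 6686 and 4396 TPM in *Alb-Cre*+ mice (chr6:71199827-71205023, plus strand). The 3 *Alb-Cre*+ values lay within the range of the controls, and the log2 difference was -0.17 (SE 0.38). In the pairs it was -0.09, -0.62 and 0.20. The ratio of *Fabp1* to *Fabp2* was 45.9, 62.6 and 36.3 in the controls and 126, 140 and 126 in *Alb-Cre*+ mice, and *Fabp2* held 1.56% to 2.64% of the FABP sum in controls and 0.696% to 0.782% in *Alb-Cre*+ mice.

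The other 3 FABP genes were far lower in level. *Fabp4* (chr3:10204088-10208576, minus strand) was at 22.1, 70.2 and 54.1 TPM in the controls and at 24.3, 96.9 and 21.9 TPM in *Alb-Cre*+ mice. *Fabp5*, which lies on the same chromosome (chr3:10012548-10016607, plus strand), was at 7.07, 14.9 and 7.04 TPM and at 5.19, 14.9 and 4.60 TPM. *Fabp7* (chr10:57784881-57788450, plus strand) was at 9.89, 17.3 and 6.31 TPM and at 5.76, 21.2 and 2.66 TPM. In each of the 3 genes the highest mouse of both genotypes was replicate 2, the female, and the genotypes overlapped. The log2 differences between genotypes were -0.23 (SE 0.65) for *Fabp4*, -0.35 (SE 0.50) for *Fabp5* and -0.56 (SE 0.73) for *Fabp7*.

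*Cd36*, a scavenger receptor that also takes up long-chain fatty acids, showed the same arrangement of mice. It was at 57.0, 112 and 40.4 TPM in the controls and at 34.1, 144 and 26.7 TPM in *Alb-Cre*+ mice (chr5:17781690-17888801, minus strand). Replicate 2 was again the highest of each genotype, and the log2 difference between genotypes was -0.32 (SE 0.66). The gene has 6 transcripts in the table, of which ENSMUST00000169095 held 49.7% to 58.6% and ENSMUST00000197890 held 22.4% to 29.3% of its TPM, and both encode the same 1416 coding bases. The share of ENSMUST00000197890, named after its values were seen, was 29.1% ± 0.211 (SD, n = 3) in controls and 24.8% ± 2.41 (SD, n = 3) in *Alb-Cre*+ mice. The values of the genotypes, 28.9% to 29.3% and 22.4% to 27.2%, did not overlap. Those of ENSMUST00000169095 (49.7% to 52.3% and 54.3% to 58.6%) and ENSMUST00000197574 (2.38% to 4.15% and 0% to 1.28%) did not either. How many transcripts of all genes separate in this way was not counted, so nothing is read from it.

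**Figure D3:**
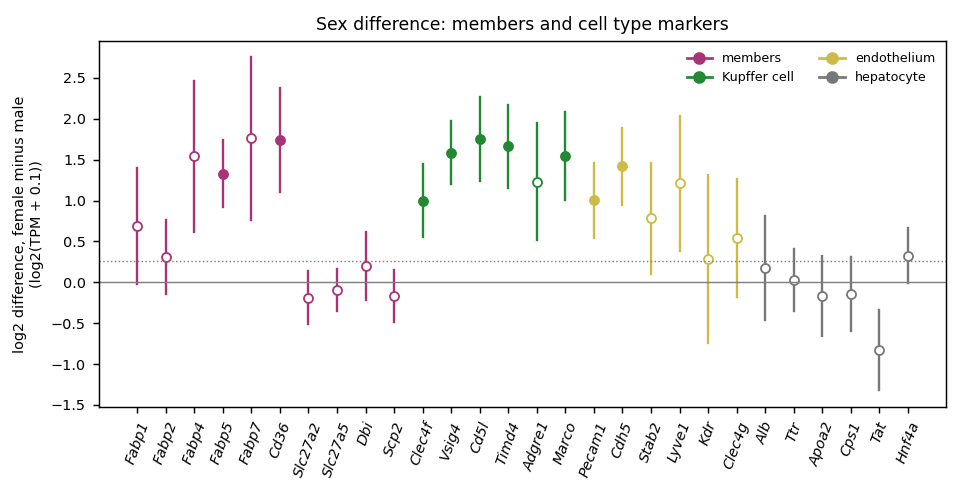
Difference of log2(TPM + 0.1), female minus male, from the limma fit with genotype and sex, with 95% intervals, for the 10 genes and for 6 markers each of Kupffer cells, endothelium and hepatocytes. Filled points have an adjusted p under 0.05 over all genes tested, and the dotted line is the median of all genes, 0.26. Fabp5 and Cd36 are filled, as are 5 of 6 Kupffer cell and 2 of 6 endothelial markers and none of the hepatocyte markers.

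Between sexes, with genotype as a covariate, 1019 of 14189 genes (7.18%) passed limma's moderated test at a Benjamini-Hochberg adjusted p of 0.05, 897 of them higher (6.32% of genes tested) and 122 lower in the 2 female mice. Of the set, 2 of 10 genes passed, both higher. *Fabp5* rose by 1.33 on the log2 scale (SE 0.17, 95% interval 0.92 to 1.74, limma adjusted p = 0.0142), from a male mean of 5.98 TPM to 14.9 TPM. *Cd36* rose by 1.74 (SE 0.27, 95% interval 1.10 to 2.38, limma adjusted p = 0.0200), from a male mean of 39.6 TPM to 128 TPM. In both genes the 2 female mice lay above all 4 male mice. Each call rests on both female mice. Without control replicate 2 the adjusted p was 0.0843 for *Fabp5* and 0.0865 for *Cd36*, and without *Alb-Cre*+ replicate 2 it was 0.185 and 0.235, with differences still between 1.07 and 2.25. With no filter on low levels, which put every symbol above 0 in any mouse in the adjustment, *Cd36* was at 0.0589.

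*Fabp7* and *Fabp4* had differences of the same size and did not pass. *Fabp7* was 1.76 (SE 0.41) and *Fabp4* 1.54 (SE 0.38) higher on the log2 scale in the female mice, with limma adjusted p = 0.0540 and 0.0618. For both genes the 2 female mice were also above all 4 male mice. The female level of *Fabp1*, 10245 and 6686 TPM, was above the highest male level of 6587 TPM by little in one of the mice, and its difference of 0.69 (SE 0.30, 95% interval -0.015 to 1.40) did not pass.

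*Fabp2*, with a difference of 0.31 (95% interval -0.14 to 0.76), did not pass either. *Slc27a2*, *Slc27a5* and *Scp2* were at -0.19, -0.09 and -0.16, with intervals from -0.52 to 0.14, -0.34 to 0.16 and -0.48 to 0.16. *Dbi* was at 0.20 (95% interval -0.21 to 0.62), and its sign turned, to -0.017, when the mice were scaled by the median of ratios. With that scaling *Slc27a2*, *Slc27a5* and *Scp2* were at -0.41, -0.31 and -0.38 and *Fabp2* at 0.09, and none of them passed.

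The median log2 difference of all genes tested was 0.26 towards the female mice, and that of the 10 genes was 0.50. Scaled by the median of ratios the median of all genes was 0.05 and that of the set 0.28. With that scaling the calls went from 88.0% higher to 66.1% higher in females, the same number of the 10 genes passed, and 878 genes in all. In 5908 genes (41.6%) the female values did not overlap the male ones, and in 5199 (36.6%) they were higher. The set had 5 of 10 genes with both females above all males, *Fabp1*, *Fabp4*, *Fabp5*, *Fabp7* and *Cd36*, and none below. With the median of ratios it had 4 above (*Fabp1* left the count) and 3 below (*Slc27a2*, *Slc27a5* and *Scp2*), against 22.0% and 16.3% of all genes.

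Markers of other liver cells moved with the same mice. Of the 6 markers of Kupffer cells, the resident macrophages of the liver, 5 passed as higher in females (*Clec4f*, *Vsig4*, *Cd5l*, *Timd4* and *Marco*), and all 6 had both females above all males. Their sum was between 116 and 181 TPM in the male mice and 424 and 461 TPM in the female mice, with none of the 6 at 0. Of the 6 endothelial markers 2 passed as higher (*Pecam1* and *Cdh5*), and the sum was between 73.9 and 123 TPM in males and 163 and 192 TPM in females. None of the 6 hepatocyte markers passed, and their sum, most of it *Alb*, was between 62183 and 83003 TPM in males and 74966 and 79912 TPM in females. *Tat* was lower in both females than in all males, with a difference of -0.83 (SE 0.21, limma adjusted p = 0.0615). *Hnf4a* was higher in both, by 0.33 (SE 0.14, limma adjusted p = 0.181). The 5 adipocyte markers summed to at most 0.873 TPM, with *Lep* at 0 and *Adipoq* at most 0.247 TPM in every mouse. *Plin1*, of the same list, was at 0.747 and 0.266 TPM in the females and at 0.0367 to 0.187 TPM in the males, a difference of 1.49 (SE 0.48, limma adjusted p = 0.107) that did not pass. The 4 cholangiocyte markers summed to between 2.24 and 4.02 TPM and none passed. The part of Kupffer, endothelial and adipocyte RNA in the difference of *Fabp5*, *Cd36*, *Fabp4* and *Fabp7* was not tested, and in whole liver more cells of a type and more RNA per cell cannot be told apart.

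Over the 6 mice, the log2 levels of *Fabp5* and *Cd36* had a Pearson r of 0.979, those of *Fabp7* and *Cd36* 0.970 and those of *Fabp5* and *Fabp7* 0.941. *Fabp1* and *Dbi* stood at 0.949 and *Slc27a5* and *Scp2* at 0.978, and these were the 5 pairs of 45 above 0.9. *Fabp4* was less close to *Cd36* (0.818) than *Fabp5* was. Among the genes that ran closest to *Cd36* of the 5149 searched were *Mtmr2* (0.998), *Tcea1* (0.995), *Twf1* (0.994) and *Sntb1* (0.992), all highest in the 2 female mice. The points share sex, genotype and library, and the values describe likeness only.

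The genotype difference had opposite signs in the sexes for 6 of the 10 genes. The share of all genes with opposite signs was not counted, so nothing is read from this count. In *Fabp1*, *Slc27a2* and *Dbi* it was 0.05, 0.02 and 0.05 in the males and -0.62, -0.28 and -0.39 in the female pair, and in *Fabp4* it was -0.58 and 0.47, with the male genotypes overlapping in all 4 genes. In *Cd36* and *Fabp7* the male genotypes did not overlap, as in 32.7% of all genes tested (23.7% lower in *Alb-Cre*+ mice). Both male *Alb-Cre*+ mice had less *Cd36* than both male controls (log2 difference -0.67), while the female *Alb-Cre*+ mouse had more than the female control (0.36). For *Fabp7* the values were -0.99 and 0.29. The term for the difference between sexes, fitted by limma after the data had been seen, was 1.03 (SE 0.40, adjusted p = 0.775) for *Cd36*, 1.29 (SE 0.78, adjusted p = 0.775) for *Fabp7* and 1.05 (SE 0.78, adjusted p = 0.784) for *Fabp4*. It passed for 0 of 14189 genes (0.0%), with 862 at an unadjusted p under 0.05, and each female value is 1 mouse.

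*Slc27a2* and *Slc27a5* encode the 2 main fatty acid transport proteins of hepatocytes, which also act as acyl-CoA synthetases for very long-chain fatty acids and for bile acids. They varied least of the set, with the highest mouse 1.35 times the lowest for *Slc27a2* and 1.23 times for *Slc27a5*. *Slc27a2* (chr2:126552407-126588243, plus strand) was at 1172, 1055 and 1001 TPM in the controls and at 1074, 868 and 1123 TPM in *Alb-Cre*+ mice, a log2 difference of -0.08 (SE 0.16). *Slc27a5* (chr7:12988346-12998192, minus strand) was at 509, 483 and 490 TPM and at 473, 416 and 442 TPM, a difference of -0.16 (SE 0.12). All 3 *Alb-Cre*+ values of *Slc27a5* lay below the controls, and this separation was lost under the median of ratios.

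*Slc27a2* was split between ENSMUST00000141482, with 1452 coding bases and 52.1% to 57.4% of its TPM, and ENSMUST00000061491, with 1860 coding bases and 40.8% to 45.8%. The longer transcript of *Slc27a5*, ENSMUST00000032539, held 76.2% to 80.4% of that gene. Of the 31-base stretches of *Slc27a2*, 10.3% were shared with the annotated gene *Gm26697*, and of those of *Fabp5* 9.27% were shared with other genes, most with *Gm6166*, which was listed at 0 in every mouse. How reads in shared stretches were assigned was not tested.

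*Dbi*, whose product binds acyl-CoA esters, was at 871, 1035 and 687 TPM in the controls and at 882, 789 and 724 TPM in *Alb-Cre*+ mice (chr1:120113280-120121078, minus strand). The genotypes overlapped, with a log2 difference of -0.10 (SE 0.18). One transcript, ENSMUST00000027634, held 95.9% of its TPM on average.

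*Scp2* was at 2801, 2394 and 2534 TPM in the controls and at 2278, 1907 and 2032 TPM in *Alb-Cre*+ mice (chr4:108043839-108144998, minus strand). Each *Alb-Cre*+ mouse was below each control. The log2 difference was -0.31 (SE 0.16), 80.4% of the control level, and it differed little between pairs (-0.30, -0.33 and -0.32). Under the median of ratios the groups overlapped. A pseudogene, *Scp2-ps2*, shared 33.4% of the 31-base stretches of *Scp2* and was listed at 0.874 to 1.73 TPM.

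**Figure D4:**
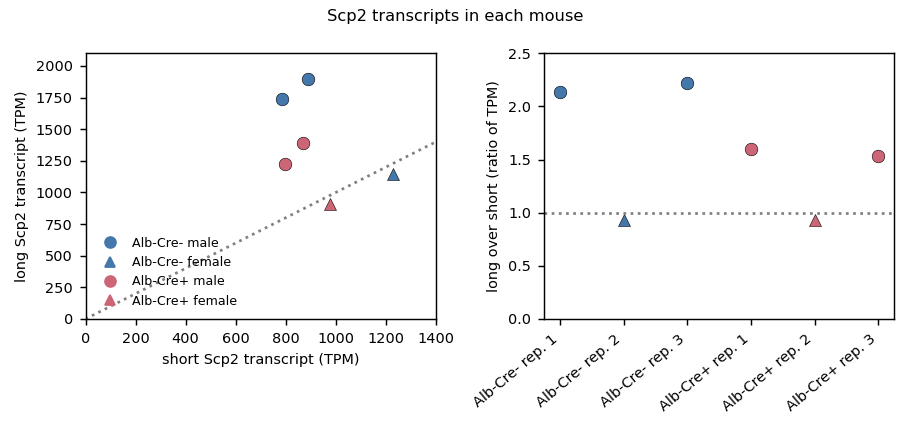
Left, TPM of the long against the short Scp2 transcript in each mouse, with a dotted line where they are equal; right, their ratio per mouse. Circles are male and triangles female. Both female mice have a ratio of 0.93 and lie just below the line of equality, and the 4 male mice have ratios of 1.53 to 2.22.

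Nearly all *Scp2* TPM belonged to 2 transcripts that start far apart. The long one, ENSMUST00000030340, has 16 exons and 547 codons, and its coding sequence starts at position 108118447 of chromosome 4. The short one, ENSMUST00000106701, has 5 exons and 143 codons and starts at 108071279, inside the long gene. Its 432 coding bases, stop included, are the last 26.3% of the 1644 of the long transcript, in the same frame, so that only reads upstream of this stretch or in the untranslated ends tell them apart. The first 60 coding bases of each, 5′ to 3′ with the start codon in capitals, show the separate beginnings.
Scp2 long: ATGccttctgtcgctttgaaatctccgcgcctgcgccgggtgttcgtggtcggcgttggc
Scp2 short: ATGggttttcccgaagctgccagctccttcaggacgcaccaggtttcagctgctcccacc

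The long transcript was at 1895, 1144 and 1736 TPM in the controls and at 1393, 909 and 1223 TPM in *Alb-Cre*+ mice. The short one was at 888, 1230 and 783 TPM and at 869, 978 and 798 TPM. The female mouse of each genotype had the least of the long transcript and the most of the short one. The ratio of long to short was 2.13, 0.930 and 2.22 in the controls and 1.60, 0.929 and 1.53 in *Alb-Cre*+ mice, lower in both females than in all 4 males. This ratio was not among the planned comparisons. How many transcript ratios of other genes separate by sex in this way was not counted, so nothing is read from the separation. The mean log2 ratio differed by -0.99 (female minus male), with an SD of 0.28 among the 4 males. The two-sided exact permutation test over the 6 mice gave p = 0.133, the smallest it can give with 2 mice against 4.

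In limma's fit over 41627 transcripts, which was added after the data had been seen, the long transcript differed by -0.59 (SE 0.12, adjusted p = 0.105) and the short one by 0.40 (SE 0.13, adjusted p = 0.215) between females and males. Neither passed, and 191 transcripts (0.459%) did. Between genotypes the differences were -0.43 (SE 0.25) for the long and -0.11 (SE 0.20) for the short transcript. In the male mice the ratio of long to short was also lower in both *Alb-Cre*+ mice than in both controls, while the female mice had the same ratio to 2 digits. The share of transcript ratios that separate by genotype among the males was not counted either, so nothing is read from it.

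The rest of the pathway was taken from lists of related genes. No gene passed between genotypes in the whole fit, so no list could hold one that did. That absence says nothing about a single list. Of 10 other intracellular lipid-binding proteins, 5 were under 0.1 TPM in every mouse (3 of them at 0), and only 2 were abundant enough to test. Neither tested gene passed between genotypes or sexes. Of 12 other uptake factors none passed in either comparison, with 6 positive and 6 negative genotype differences. *Got2*, at 258 to 330 TPM, was the most abundant of them, followed by *Scarb1* and *Lipc*. *Scarb1*, the receptor for high density lipoprotein, was at 107 ± 12.9 TPM (SD, n = 3) in the controls and at 79.2 ± 4.96 TPM (SD, n = 3) in *Alb-Cre*+ mice. The transport protein gene *Slc27a1*, named after its values were seen, was higher in each *Alb-Cre*+ mouse than in each control, at 22.1 ± 4.18 against 12.2 ± 3.92 TPM (SD, n = 3), a log2 difference of 0.89 (SE 0.27). *Mfsd2a*, a lysophospholipid transporter gene named in the same way, was at 96.8, 190 and 51.8 TPM in the controls and at 66.0, 24.6 and 14.7 TPM in *Alb-Cre*+ mice, a difference of -1.77 (SE 0.63) with overlapping groups.

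Of 10 acyl-CoA synthetases tested, none passed between genotypes and 1 passed between sexes. *Acsm1*, a medium-chain synthetase, fell by 0.96 on the log2 scale in females (SE 0.17, limma adjusted p = 0.0299), from 93.3 to 114 TPM in males to 42.8 and 62.2 TPM. Under the median of ratios 3 of the 10 passed, all lower. *Acsl1*, the most abundant, was at 314 to 573 TPM, and *Acsl5* at 99.3 to 179 TPM. Of 7 other acyl-CoA-binding and sterol carrier domain genes tested none passed in either comparison, and the most abundant, *Eci2*, *Hsd17b4* and *Acbd5*, had genotype differences of 0.14 (SE 0.19), 0.00 (SE 0.17) and -0.26 (SE 0.16).

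Among 20 genes that respond to PPARA, the nuclear receptor that switches on fatty acid use in fasting and has members of the FABP family among its targets, none passed between genotypes. Of these, 16 had positive and 4 negative differences, with a median of 0.24 beside -0.0017 over all genes. *Cyp4a14* was at 4774, 5819 and 3377 TPM in the controls and at 5822, 5943 and 4300 TPM in *Alb-Cre*+ mice. Between sexes 2 passed, both higher in females. They were *Fgf21*, a hormone released by the fasted liver, by 2.27 (SE 0.38, limma adjusted p = 0.0241), and *Cidec*, a lipid droplet protein, by 2.63 (SE 0.31, limma adjusted p = 0.0117). Genes known for sex-biased expression in mouse liver followed the labelled sex. All 12 female-biased genes tested were higher in the female mice, and 7 passed. All 11 male-biased genes tested were lower, and 10 passed, as did 4 of 4 Y-linked genes, all lower. None of these genes passed between genotypes.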

How the data were processed

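Liver RNA was sequenced from 6 mice, 3 with *Alb*-Cre (*Alb-Cre*+) and 3 littermates without it (*Alb-Cre*-), grouped by their labels. The authors deposited TPM per transcript, each mouse summing to 1000000. The study's methods name STAR alignment to GRCm38 and RSEM, while the labels also list Salmon, DESeq2 and DESeq, with versions not given in the sources used here. A second deposited table holds only the authors' own comparison (mean normalized counts, log2 fold changes, errors and p-values) and was not used. No counts and so no depths were used, and precision rests on the spread between mice.

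TPM were summed per symbol over 116748 transcripts, leaving out 163 rows with no symbol (0.0515% to 0.0887% of TPM). The 14189 genes whose mean reached 0.1 TPM were fitted on log2(TPM + 0.1) by limma 3.58.1 in R 4.3.3 with a mean trend and Benjamini-Hochberg adjustment: genotype alone at 0.01, the study's limit, and genotype plus sex at 0.05. All 10 genes passed this filter. Fold differences on this scale are understated for low genes. The fits were tested on simulated data. Coordinates and coding sequences came from GENCODE M21 (GRCm38), matched by transcript identifier without its version, which is later in the table, and promoters from RefSeq. Sharing of sequence was measured as stretches of 31 bases.

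Mice with the same number in both genotypes deviated together from their group means (r = 0.367, 0.588 and 0.370, against -0.444 to 0.171 for different numbers, over genes). Deviations within a group of 3 sum to 0, which lowers the values for different numbers, and number 2 is the female in both. Between males, the same number gave 0.367 and 0.370, and different numbers gave 0.171 and 0.0914. The numbers come from the sample labels and were used to set mice side by side. Whether they mark true pairs was not tested. Alternatives were a pseudocount of 1 TPM, no filter or a minimum of 1 TPM, median-of-ratios scaling, no trend, other thresholds and covariates, and leaving out each mouse. The 10 genes and the 14 other lists were chosen with earlier results of these data known. The rule named all 10 genes, *Surf4*, from each list the 3 most abundant or any that passed, and the 5 genes most like *Fabp2* and *Cd36*, and 2 genes that it names are not reported here. *Slc27a1*, *Mfsd2a* and the *Cd36* transcript share were picked after their values were seen. Labels do not say that replicates differ in more than the animal, and p-values measure the spread between these mice.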

Additional observations from a re-analysis of the deposited data

Results flagged for a closer look

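The genotype difference of *Cd36* and of *Fabp7* ran in opposite directions in the sexes. The log2 difference between *Alb-Cre*+ mice and controls was 1.03 greater in the female pair than in the male mice for *Cd36* and 1.29 greater for *Fabp7*. All 4 male values of each gene separated by genotype with the *Alb-Cre*+ mice lower, and the single female pair went the other way. Of all genes tested, 32.7% separated by genotype in the male mice, and 23.7% were lower. The limma interaction term did not pass for either gene (adjusted p = 0.775 for both). *Fabp4* had a term of similar size (1.05), and *Fabp1*, *Slc27a2* and *Dbi* had opposite signs the other way round, but in these 4 genes the male genotypes overlapped.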

How the results depend on the processing

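The count of genes passing between genotypes was 0, and it stayed at 0 under every setting tried but one: it ranged from 0 to 1 when each mouse was left out (1 gene without *Alb-Cre*+ replicate 1). With the replicate number as a block it was 0, with 666 genes at an unadjusted p under 0.05 and a smallest adjusted p of 0.0580. The block was fitted for the genotype comparison alone, since sex could not be fitted with it while both females are number 2. The count of genes passing between sexes was 1019, and it was 362 with no filter on low levels, 1552 with sex as the only factor and 73 at an adjusted p of 0.01. Leaving out each mouse gave 15 to 702, with 15 without control replicate 2 and 16 without *Alb-Cre*+ replicate 2, and 347, 463 and 587 without *Alb-Cre*+ replicate 1, *Alb-Cre*+ replicate 3 and control replicate 3. The number of the 10 genes whose genotypes did not overlap was 3, and it was 1 under the median of ratios and 6 in male mice only. The sex difference of *Dbi* turned to -0.017 under the median of ratios, and it ranged from -0.018 (without control replicate 2) to 0.42 when each mouse was left out. Of 120 values of the 10 genes between sexes, 108 kept their direction and their side of the threshold, 5 lost it and 5 passed it: *Fabp7* with a pseudocount of 1 TPM, without control replicate 1 and with sex as the only factor, and *Fabp4* without control replicate 3 and with sex as the only factor. Shares of the 2 main *Cd36* transcripts in controls moved by more than their SD when transcripts under 5% were left out. The cause of these changes was not tested. TPM keep no counts, so what depth limits in *Fabp5* and *Fabp7*, at a few TPM, cannot be given.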
